A study of Homo sapiens with 14 samples.

Results

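The zinc finger genes studied here lie at the end of the long arm of human chromosome 19, in 19q13.43. They are the protein-coding genes whose symbol starts with ZNF and whose body overlaps chr19:56000000-59128983 of GRCh37 (hg19), a stretch of 3129 kb. The annotation holds 58 such genes, and 57 had an identifier in the gene tables, out of 63677 identifiers per table and 509 protein-coding ZNF genes in all. ZNF8 was the gene whose identifier was not matched, and it was not analysed here. The rule for these genes uses symbol and position and no expression value.

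Zinc finger proteins of this family read DNA through arrays of C2H2 fingers. Many also carry a KRAB domain, which recruits the co-repressor TRIM28 and, through it, the histone methyltransferase SETDB1. KRAB zinc finger genes arose by repeated gene duplication, lie in clusters on chromosome 19, and are best known for silencing transposable elements such as endogenous retroviruses. LTR5_Hs and LTR5B are long terminal repeats of the HERVK retrovirus, and copies of both lie among the genes of 19q13.43.

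Bulk RNA-seq covered 12 libraries of H9, an established human embryonic stem cell (hESC) line, and of its derivatives. The 2 hESC libraries were of undifferentiated cells, and their labels name no transgene. The 3 control endoderm libraries (DE_ctl) came from cells expressing dCAS9-KRAB, a catalytically dead Cas9 fused to a KRAB repressor domain, with no sgRNA, and the 3 CRISPRi endoderm libraries (DE_CRISPRi) from cells that also carried an sgRNA against LTR5. Endoderm was made with 100 ng/ml Activin A for 3 days and the GSK-3 inhibitor CHIR-99021, at 5 μM on the first day and 0.5 μM on the second. The 2 control foregut (FG_ctl) and 2 CRISPRi foregut (FG_CRISPRi) libraries were taken 3 days of foregut culture later. Gastruloids are self-organising aggregates, here labelled as H9 and started from 800 cells per well. They were harvested at 72 h, and 1 preparation gave single-nucleus RNA-seq and ATAC-seq. dCAS9-KRAB was delivered to the hESC by a lentiviral vector with selection. The foregut groups rest on the sample titles, because their status labels call the controls hESC and the CRISPRi samples endoderm without sgRNA. CRISPRi in a foregut title was read as dCAS9-KRAB with the sgRNA against LTR5, as in endoderm. The titles do not say whether the control foregut cells carried dCAS9-KRAB. The paper describes its RNA-seq replicates as biologically independent. It does not say whether they came from separate cultures or differentiations, so the p-values measure the spread between these libraries.

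Gene reads ranged from 11583063 to 37152434 per library. The foregut libraries held reads for 15005 to 17926 genes, against 19678 to 20973 in hESC and endoderm, and mitochondrial genes took 8.3% to 34.66% of reads. The second CRISPRi foregut library had reads for 46 of the 57 zinc finger genes, where every other library had reads for 54 to 57. The labelled tissues carried their markers: all 9 endoderm markers were higher in control endoderm than in hESC, and 5 of 8 measured foregut markers were higher in control foregut than in control endoderm. TTR, a liver and foregut transcript, was at 0 in the hESC and endoderm libraries and between 1490 and 1990 counts per 1000000 gene reads (CPM) in the foregut libraries. All 6 mesoderm markers were also higher in control endoderm than in hESC, with a summed level of 1.69 to 1.86 CPM in hESC and 95.7 to 250 CPM in control endoderm. The summed level of 4 genes listed as extraembryonic markers, GATA3, KRT7, TFAP2A and CDX2, was 3.54 to 8.51 CPM in hESC and endoderm and 93.2 to 120 CPM in foregut. KRT7 was the largest part of the foregut sum, at 37.5 to 97.1 CPM, while TFAP2A was at 0 to 1.79 CPM. CDX2 also marks gut, so this sum does not show that extraembryonic cells were present. The part of any other cell types in the results on zinc finger genes was not tested. In bulk samples fewer cells of a type and less RNA per cell cannot be told apart.

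The element targeted by the sgRNA was lower in CRISPRi endoderm. LTR5_Hs reads, summed over 614 integrants, were 18.86, 19.23 and 17.77 CPM of gene reads in control endoderm and 10.56, 12.68 and 14.07 in CRISPRi endoderm. LTR5B reads, summed over 424 integrants, were 5.03, 5.57 and 5.5 CPM in control endoderm and 1.5, 3.36 and 3.02 in CRISPRi endoderm, so that neither pair of groups overlapped. In foregut the LTR5B values were 12.41 and 9.29 CPM in the controls and 5.59 and 4.28 with the sgRNA, again without overlap. The foregut LTR5_Hs values did overlap, at 9.1 and 8.75 CPM in the controls and 4.43 and 10.86 CPM with the sgRNA. These sums were not tested, and the list of integrants is that of the genome as a whole.

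LTR5 copies were then located among the zinc finger genes. The interval held 11 of the 1033 integrants annotated as LTR5_Hs or LTR5B in the genome, 4 of them LTR5_Hs and 7 LTR5B. Reads were counted on only 3 of the 11 in any of the 12 libraries, and these 3 held 4, 8 and 1 reads in all, so that transcription of the copies themselves could not be followed. The letters AGATAA, the core bound by GATA factors, were searched on both strands and were present in 8 of the 11 integrants (72.7%), beside 82 of the 129 integrants of chromosome 19 (63.6%). A match is a description of the letters and not a measured binding site.

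Closeness to LTR5 was common but not particular to these genes. Of the 57 genes, 33 (57.9%) had an LTR5_Hs or LTR5B integrant within 100 kb of the gene body, and 19 (33.3%) had one within 50 kb. The share at 100 kb was the same among the other ZNF genes of chromosome 19, 110 of 190 (57.9%), and higher among the 40 ZNF genes of chromosome 19 between 52 and 55 Mb, of which 36 (90%) had one. It was 39 of 262 (14.9%) for ZNF genes of other chromosomes and 2364 of 19488 (12.1%) for all protein-coding genes. Within 50 kb the share among the other ZNF genes of chromosome 19 was 83 of 190 (43.7%), above that of the 57 genes. An integrant overlapped the body of 31 of those 190 genes and of 5 of the 57. The median distance to the closest integrant was 80.8 kb for the 57 genes and 1.9 kb for the ZNF genes at 52 to 55 Mb. Positions were compared without a test, since neighbouring genes share the same integrants.

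In 5 genes an integrant overlapped the gene body. ZNF549 (chr19:58038693-58068910, plus strand) and ZNF550 (chr19:58046625-58071231, minus strand) overlap each other and share an LTR5B copy (chr19:58068076-58069068). Of its 993 bases, 835 lie in an exon of ZNF549 and the rest past the end of that gene, while all lie in an intron of ZNF550. ZNF586 (chr19:58281023-58331307, plus strand) and ZNF552 (chr19:58315209-58326281, minus strand) likewise share a pair of LTR5_Hs fragments (chr19:58321698-58322526 and chr19:58322830-58322936), which are intronic in both. ZNF587B (chr19:58331089-58357606, plus strand) holds a pair of intronic LTR5B copies (chr19:58334995-58335963 and chr19:58340331-58341323). Measured from the transcription start, the closest integrant lay 2163 bp from ZNF550, 3345 bp from ZNF552 and 3906 bp from ZNF587B, but 29383 bp from ZNF549 and 40675 bp from ZNF586.

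The 57 genes were expressed at low to moderate levels. The median of their mean levels over the 12 libraries was 5.87 CPM, with 3 genes under 1 CPM, 38 between 1 and 10 CPM and 16 at 10 CPM or more. Their summed level was 539 ± 22.3 CPM in hESC (SD, n = 2), 492 ± 18.4 in control endoderm (n = 3), 484 ± 39 in CRISPRi endoderm (n = 3), 511 ± 79.5 in control foregut (n = 2) and 415 ± 63.5 in CRISPRi foregut (n = 2). The sums of hESC, control endoderm and control foregut differed by less than the spread between the control foregut libraries, while the levels of single genes differed between groups in both directions. By group mean, 21 genes were highest in hESC and 18 in control foregut, and 24 were lowest in CRISPRi foregut, which includes the library with reads for 46 of the genes.

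**Figure D1:**
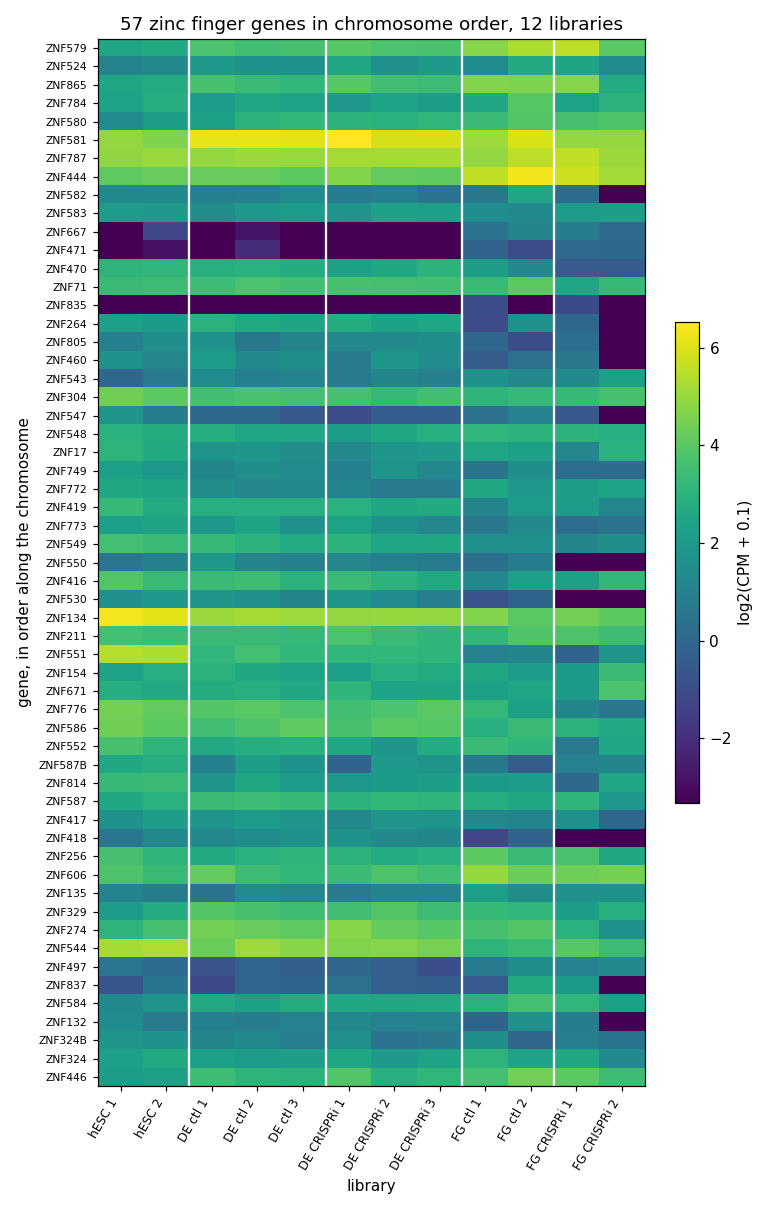
Levels of the 57 zinc finger genes (rows, in order along the chromosome) in the 12 bulk libraries (columns, groups parted by white lines), as log2(CPM + 0.1). ZNF581, ZNF787, ZNF444 and ZNF134 are bright in most libraries, ZNF667, ZNF471 and ZNF835 are at or near 0 outside foregut, and dark cells collect in the second CRISPRi foregut library.

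Per kilobase of exon, a scale on which genes can be compared, the highest mean level was that of ZNF581, at 32.1 ± 13.3 CPM per kb (SD over 12 libraries). ZNF787 followed at 9.64 ± 1.64, ZNF134 at 6.87 ± 3.84 and ZNF579 at 5.49 ± 3.85. These SDs include differences between groups, and the order of the last pair depends on the group. By group mean, ZNF134 was at 74.5 CPM in hESC and 20.5 CPM in control foregut, and ZNF579 at 5.91 and 33.2 CPM. ZNF787 was also among the steadiest genes, at 29.7 to 37.9 CPM in hESC and endoderm and 30.4 to 48 CPM in foregut. ZNF581 shares 24.9% of its exon bases with the neighbouring ZNF580 and CCDC106, which lie on the same strand, and its count depends on how such bases were assigned.

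The lowest levels per kb among genes with 10 reads or more were those of ZNF835, at 0.0188, ZNF471, at 0.0394, ZNF667, at 0.0611, and ZNF805, at 0.178 CPM per kb. ZNF667 had 0 and 8 reads in hESC, 0, 1 and 0 in control endoderm, none in CRISPRi endoderm, 38 and 85 in control foregut and 47 and 22 in CRISPRi foregut. ZNF471 had 4 reads in all over hESC and endoderm and 15 to 26 reads per foregut library. ZNF835 had reads in 2 libraries only, the first of each foregut group. ZNF667 and ZNF471 were thus at or near 0 in hESC and endoderm and at a low level in each foregut library. ZNF805 had the opposite order, at 1.47 to 3.19 CPM in hESC and endoderm and 0 to 1.12 CPM in foregut.

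The chromatin data of the gastruloids could be set beside these levels through the promoters. RefSeq promoters (250 bases before to 50 after a start, GRCh38.p14) were found for 52 of the 57 genes, the others being ZNF211, ZNF417, ZNF471, ZNF524 and ZNF552. A peak of accessible chromatin, called on GRCh38 over all nuclei together, overlapped a promoter of 50 of the 52 (96.2%), beside 147 of 163 other ZNF genes of chromosome 19 (90.2%), 189 of 211 ZNF genes elsewhere (89.6%) and 12138 of 15843 protein-coding genes (76.6%). The genes without a peak at any listed promoter were ZNF667 and ZNF835, which were also among the lowest in bulk and had no row in the table of gastruloid nuclei. Their promoters are shown beside those of ZNF581, the highest gene per kb, and ZNF551, the called gene with the largest fall on differentiation, with CG dinucleotides in capitals.

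ZNF667 (chr19:56477296-56477595, minus strand): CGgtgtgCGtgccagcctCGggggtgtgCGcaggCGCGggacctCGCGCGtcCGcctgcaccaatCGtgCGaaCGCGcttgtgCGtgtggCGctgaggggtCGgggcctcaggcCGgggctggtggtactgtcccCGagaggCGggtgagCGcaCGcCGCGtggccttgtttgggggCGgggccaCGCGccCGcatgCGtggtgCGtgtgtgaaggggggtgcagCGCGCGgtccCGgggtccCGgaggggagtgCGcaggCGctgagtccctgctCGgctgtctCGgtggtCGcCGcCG
ZNF835 (chr19:56671708-56672007, minus strand): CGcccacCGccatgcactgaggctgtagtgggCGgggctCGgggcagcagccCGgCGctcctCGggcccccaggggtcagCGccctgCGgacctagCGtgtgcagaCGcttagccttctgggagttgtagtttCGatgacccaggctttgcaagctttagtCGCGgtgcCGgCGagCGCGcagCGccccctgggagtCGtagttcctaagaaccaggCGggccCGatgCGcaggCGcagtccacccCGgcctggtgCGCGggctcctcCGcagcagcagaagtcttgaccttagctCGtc
ZNF581 (chr19:55643399-55643698, plus strand): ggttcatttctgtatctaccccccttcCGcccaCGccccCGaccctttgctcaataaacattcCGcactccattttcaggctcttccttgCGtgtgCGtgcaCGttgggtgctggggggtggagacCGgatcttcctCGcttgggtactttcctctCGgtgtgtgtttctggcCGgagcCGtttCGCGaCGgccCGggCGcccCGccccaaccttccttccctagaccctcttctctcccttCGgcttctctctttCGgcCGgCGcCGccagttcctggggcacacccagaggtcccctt
ZNF551 (chr19:57681727-57682026, plus strand): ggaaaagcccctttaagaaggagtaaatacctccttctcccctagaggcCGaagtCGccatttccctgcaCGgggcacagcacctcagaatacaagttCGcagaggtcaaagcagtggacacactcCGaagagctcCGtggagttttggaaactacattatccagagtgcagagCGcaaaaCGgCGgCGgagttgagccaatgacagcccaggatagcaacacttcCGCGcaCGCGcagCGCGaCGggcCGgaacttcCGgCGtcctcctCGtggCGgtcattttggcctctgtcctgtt

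The ZNF667 promoter held 42 CG dinucleotides in 300 bases, the most of any of the 58 promoters of these genes, and that of ZNF835 held 29, against a median of 23 over the 58. ZNF581 held 23 and ZNF551 held 22. Of the 58 promoters 5 had no peak, and the other 3, which belong to ZNF580 (10 CG each) and ZNF446 (3 CG, the fewest), are alternative starts of genes with a peak at another start. Methylation was not measured here.

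Endodermal differentiation was examined first by comparing control endoderm with hESC, which differ in dCAS9-KRAB as well as in cell state. Of 56 genes tested, 6 were called higher and 6 lower (edgeR quasi-likelihood test, Benjamini-Hochberg adjusted p below 0.05 and fold change over 2). Among all 20818 genes tested 26% were called, 14.2% higher and 11.8% lower, so the share among the zinc finger genes, 12 of 56, was close to the background. The median log2 fold change was -0.2 for the zinc finger genes, with 32 below 0 against 48.4% of all genes, and 0.04 for all genes. It was -0.14 without hESC library 1 and -0.07 without hESC library 2. At an unadjusted p below 0.05, 23 of the 56 differed, against 46.1% of all genes.

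ZNF551 showed the largest fall among the called genes. Its level was 42.8 and 40.1 CPM in hESC, 8.92, 11.9 and 9 CPM in control endoderm, and 1.98 and 2.13 CPM in control foregut. The groups did not overlap, and the level dropped at both steps. From hESC to control endoderm the log2 fold change was -2.03 ± 0.21 (SE, edgeR adjusted p = 2.17e-06), a 4.07-fold lower level. ZNF134 had the highest CPM of the zinc finger genes in hESC, a scale that does not allow for exon length. It was at 81.2 and 67.8 CPM there and at 32.7, 37.2 and 33.9 CPM in control endoderm. The log2 fold change was -1.07 ± 0.19 (edgeR adjusted p = 0.000288). ZNF814, ZNF17, ZNF772 and ZNF547 fell as well, with log2 fold changes of -1.12, -1.16, -1.1 and -1.61 and edgeR adjusted p-values of 0.00464, 0.00321, 0.00609 and 0.00606. ZNF547 was the least expressed of them, at 3.29 and 1.64 CPM in hESC and 0.563 to 0.897 CPM in control endoderm. Leaving out the first hESC library, so that hESC had no replicate, kept the direction of all the genes that fell. ZNF134 and ZNF17 then had log2 fold changes of -0.94 and -0.97, under the fold limit of 2. ZNF551, ZNF814, ZNF772 and ZNF547 had -1.98, -1.16, -1.05 and -1.03.

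ZNF581 led the genes that rose. It was at 30.2 and 24.4 CPM in hESC and at 70.7, 70.7 and 67.4 CPM in control endoderm, a 2.61-fold higher level with a log2 fold change of 1.38 ± 0.2 (edgeR adjusted p = 4.94e-05). ZNF329 rose from 4.11 and 6.54 CPM to 14.3, 12.7 and 11 CPM, with a log2 fold change of 1.28 ± 0.27 (edgeR adjusted p = 0.00154). ZNF580, ZNF579, ZNF446 and ZNF584 rose by 1.1, 1.08, 1.04 and 1.03 on the log2 scale, with edgeR adjusted p-values of 0.017, 0.00251, 0.00626 and 0.0122. ZNF579, ZNF580 and ZNF581 lie within the first 6 of these genes along the chromosome, and ZNF446 is the last before the telomere. ZNF446 shares 60.4% of its exon bases with other genes, ZNF324 among them, and ZNF584 shares 29.5%. Without the first hESC library, which leaves hESC without a replicate, these genes kept their direction. Their log2 fold changes were then 1.54 for ZNF581, 0.98 for ZNF329, ZNF579 and ZNF446, 0.79 for ZNF580 and 0.86 for ZNF584. All but that of ZNF581 were under the fold limit of 2.

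**Figure D2:**
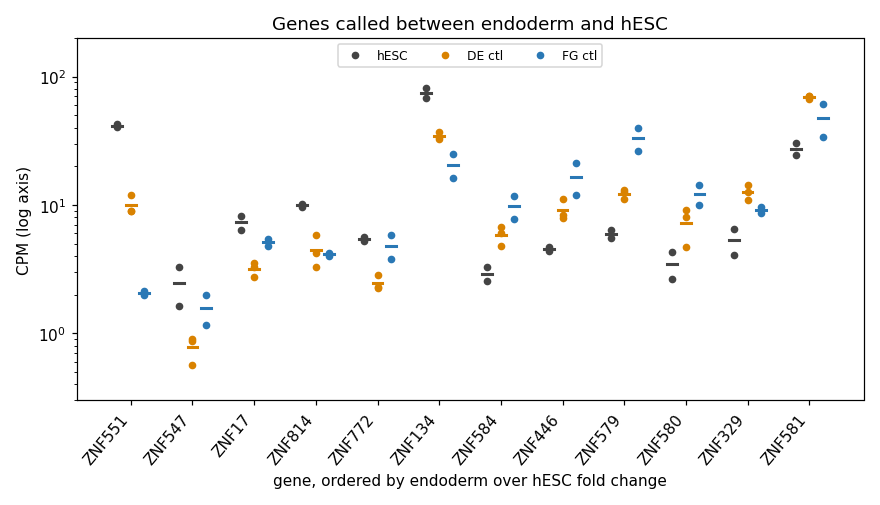
CPM on a log axis of the 12 genes called between control endoderm and hESC, ordered by fold change, with a point per library and a bar at the group mean for hESC, control endoderm (DE ctl) and control foregut (FG ctl). ZNF551 drops at each step, from 42.8 and 40.1 CPM in hESC to 1.98 and 2.13 CPM in control foregut, and ZNF579 rises at each step.

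Genes around the cluster and genes of its co-repressor pathway were compared in the same fit. Of 190 other ZNF genes of chromosome 19, 173 were tested, with 18 called higher and 12 lower and a median log2 fold change of -0.03. Of 19 KRAB co-repressor and silencing genes, none was called higher and 2 were called lower, namely DNMT3B, a de novo DNA methyltransferase, with a log2 fold change of -2.45 (edgeR adjusted p = 7.34e-08), and MORC2, with -1.03 (edgeR adjusted p = 0.000703). TRIM28 was not called, at 1190 and 1160 CPM in hESC and 619, 791 and 739 CPM in control endoderm. ZSCAN18 and ZSCAN22, zinc finger genes of the interval with another prefix, rose by 1.19 each (edgeR adjusted p = 0.00101 and 0.0403).

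The second step, from endoderm to foregut, was compared between the control groups. These use the same control endoderm libraries as the comparison with hESC. The foregut libraries were added to the series later, so a batch and the tissue cannot be told apart. Of 57 genes tested, 6 were called higher and 10 lower. Among all 21466 genes 29% were called, 14.1% higher and 15% lower, and the 16 of 57 zinc finger genes were again near that share. At an unadjusted p below 0.05, 28 of the 57 differed, against 44.5% of all genes. The median log2 fold change was -0.12 for the 57 genes, with 29 below 0 against 52.2% of all genes, and -0.09 for all genes.

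ZNF444, a SCAN domain protein, rose most among the called genes over 1 CPM. It was at 19, 18.6 and 16.6 CPM in control endoderm and 48.2 and 79.5 CPM in control foregut, a 3.53-fold higher level (log2 fold change 1.82 ± 0.26, edgeR adjusted p = 0.000825). ZNF579 rose a further 2.71-fold, to 26.4 and 40 CPM. ZNF865, ZNF497 and ZNF606 were called higher with log2 fold changes of 1.23, 1.74 and 1.03 (edgeR adjusted p = 0.00582, 0.0455 and 0.0465). ZNF497 shares 52.3% of its exon bases with other genes on both strands. The remaining gene called higher was ZNF667, named after its values were seen, whose reads are given above.

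ZNF418 and ZNF551 fell most. ZNF418 was at 2.29, 2.67 and 3.25 CPM in control endoderm and 0.325 and 0.77 CPM in control foregut, 4.93-fold lower (log2 fold change -2.3 ± 0.59, edgeR adjusted p = 0.0155). ZNF551 was 4.83-fold lower (log2 fold change -2.27 ± 0.34, edgeR adjusted p = 0.00108). ZNF544 was at 20, 33.9 and 27.4 CPM in control endoderm and 8.38 and 9.95 CPM in control foregut (log2 fold change -1.57 ± 0.3, edgeR adjusted p = 0.00399). ZNF530, ZNF460 and ZNF416 fell by 2.15, 1.78 and 1.48 on the log2 scale (edgeR adjusted p = 0.0145, 0.0294 and 0.017). The other genes that fell were ZNF549, ZNF419, ZNF470 and ZNF776. ZNF530 had the widest range of group means, 5.12 on the scale of log2(CPM + 0.1), from 2.94 and 3.82 CPM in hESC to 0 in both CRISPRi foregut libraries. With control endoderm library 1, 2 or 3 left out, 10, 7 or 9 genes were called, counts that are not set beside those over all genes. The median log2 fold change was 0.09 without control endoderm library 2 and -0.32 without control foregut library 2. In the same comparison 5 of the 19 KRAB co-repressor and silencing genes fell, DNMT3B, DNMT1, MORC3, SMARCAD1 and ATF7IP, with log2 fold changes of -3.43, -1.33, -2.2, -1.45 and -1.13 (edgeR adjusted p = 2.36e-05, 0.00366, 0.00254, 0.00281 and 0.00395).

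LTR5 repression was examined by comparing CRISPRi endoderm with control endoderm. None of the 55 zinc finger genes tested was called by edgeR, and none had an unadjusted p below 0.05. Among all 20407 genes 0.0343% were called, 1 higher (0.0049%) and 6 lower (0.0294%), and 5.18% had an unadjusted p below 0.05. The calls by DESeq2 and limma voom were also 0 for the zinc finger genes. Their median log2 fold change was -0.06, with 33 genes below 0 against 52.7% of all genes, and that of all genes was -0.02. Without control endoderm library 2 the median was -0.01.

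The ZNF genes nearer the centromere were set beside them. Of 38 ZNF genes tested between 52 and 55 Mb, none was called either, but 18 had a lower level at an unadjusted p below 0.05, 2.52% of all genes being lower at that level. All 38 had a log2 fold change below 0, with a median of -0.62 and a range from -1.94 to -0.12. The difference between the groups of genes was not tested.

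Within 19q13.43 the values were set against distance. The 31 tested genes within 100 kb of an LTR5 integrant had a median log2 fold change of -0.11, with 8 above 0 and 23 below. The 24 genes farther away had a median of 0.06, with 14 above 0 and 10 below. The lowest value, -3 with an SE of 2.31, was that of ZNF471, which rests on 3 reads in 1 control library. The 5 genes whose body an integrant overlapped had log2 fold changes of -0.31 for ZNF549, -0.42 for ZNF550, 0.05 for ZNF586, -0.35 for ZNF552 and -0.2 for ZNF587B. Their SEs ranged from 0.23 to 0.48 and their unadjusted p-values, from edgeR, from 0.232 to 0.828.

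ZNF549 was at 9.67, 8.06 and 6.63 CPM in control endoderm and 8.18, 5.5 and 5.71 CPM in CRISPRi endoderm. ZNF550 was at 3.69, 2.03 and 1.88 CPM in the controls and 2.24, 1.82 and 1.51 CPM with the sgRNA. ZNF552 was at 5.98, 6.95 and 7.5 CPM and then at 5.67, 3.63 and 6.64 CPM. The groups overlapped for each of these genes, and at this depth and number of libraries no difference was detectable.

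The same comparison in foregut called none of 57 zinc finger genes with edgeR, beside 0.165% of all 20044 genes, 10 higher (0.0499%) and 23 lower (0.115%). At an unadjusted p below 0.05, 4 zinc finger genes were lower, beside 1.98% of all genes, and none was higher, while 3.49% of all genes passed in either direction. These were ZNF550, ZNF776, ZNF552 and ZNF274, named after their values were seen. ZNF274, which is known to bind the ends of other zinc finger genes, was at 12.1 and 14.5 CPM in the controls and 7.65 and 3.15 CPM with the sgRNA. ZNF776 was at 9.42 and 4.72 CPM in the controls and 2.18 and 1.4 CPM with the sgRNA. ZNF552 was at 10.3 and 8.64 CPM and then at 1.6 and 5.5 CPM. All of these had an edgeR adjusted p of 1, although their groups did not overlap.

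ZNF550, ZNF530 and ZNF418 had no read in either CRISPRi foregut library. A count of 0 allows up to 3 reads per library, or 0.12 CPM on average, and the control foregut means of 1.43, 0.641 and 0.547 CPM were at least 11.9-fold, 5.35-fold and 4.56-fold above that limit. This limit covers counting error only. The median log2 fold change over the 57 genes was -0.28, with 43 below 0 against 53.9% of all genes, and that of all genes was -0.06. Setting the genes without a read at their limit leaves this median as it is, since they stay below it. It was -0.24 for the 33 genes within 100 kb of an LTR5 integrant and -0.32 for the 24 beyond. The values depended on which CRISPRi library was kept. Without the first, which leaves the library with reads for 46 of the genes, 4 zinc finger genes were called lower and the median was -0.59, while the calls over all genes went from 33 to 527. Without the second none was called, beside 74 of all genes. CDX2 and PDX1, markers of gut and pancreas lineages, were also lower in CRISPRi foregut (edgeR adjusted p = 0.000992 and 0.00218), as was AFP, a liver marker that stood at 187 and 4.82 CPM in the control libraries and at 0.0363 and 0 CPM with the sgRNA. Their part in the values of the zinc finger genes was not tested.

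The effect of the sgRNA was compared between tissues by an interaction contrast over the 10 endoderm and foregut libraries. None of the 57 genes was called by edgeR, beside 0.194% of all 22708 genes, 0.0528% higher and 0.141% lower, and 6 had a lower value in foregut at an unadjusted p below 0.05, beside 4.85% of all genes lower and 8.23% in either direction. These were ZNF550, ZNF530, ZNF418, ZNF776, ZNF470 and ZNF274, with edgeR adjusted p-values from 0.0538 for ZNF550 to 0.509 for ZNF274. DESeq2 called 5 of the zinc finger genes and limma voom 1, all lower in foregut, beside 236 and 56 of all genes and 44 by edgeR. Without the first CRISPRi foregut library 13 were called, beside 805 of all genes, and without the second none was, beside 99 of all genes.

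Levels in gastruloid nuclei were described without a test, because there was 1 preparation. Of 3646 nuclei, 3422 passed the filters, with a median of 16302 UMIs, and Scrublet marked 70 of them (2.05%) as doublets, which were kept and counted. Of the 57 genes, 53 had a row in the table, and ZNF471, ZNF667, ZNF772 and ZNF835 did not. The nuclei were clustered without the zinc finger genes into 9 clusters. Cluster 0 was called axial mesoderm-like, since all 7 of its fixed markers, NOTO, SHH and CHRD among them, exceeded 2 times the level of the other nuclei. The other names rest on part of a marker list. In cluster 3, called paraxial-like (EBF1, EDNRA), 5 of 8 listed markers exceeded that limit. In cluster 4, called segmenting mesoderm-like (PCDH8, RIPPLY1), 4 of 7 did. In cluster 7, called presomitic-like (TBX6, MSGN1), 5 of 7 did. Some listed markers were higher in another cluster. PAX3 was higher in cluster 2 than in cluster 3, and RIPPLY2 and MESP2 were higher in cluster 7 than in cluster 4. HES7 was higher in cluster 0 than in cluster 7. Cluster 5 was highest in SOX2, NKX1-2 and FGF8, but its leading genes included the pluripotency gene L1TD1, and it was left unnamed, as were clusters 1, 2, 6 and 8. Clusters 0 and 5 held 26 and 23 of the doublets.

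Taken as a sum, the zinc finger genes differed little between the clusters of this setting. They made up 5.54 of every 10000 UMIs (95% Poisson interval 5.48 to 5.6), from 5.26 (5.12 to 5.39) in the axial mesoderm-like cluster to 5.78 (5.6 to 5.95) in cluster 5. These intervals do not overlap, but they cover counting error in 1 preparation only. At Leiden resolution 1 the ratio of the highest to the lowest cluster was wider, as given in the last section. UMIs per gene ranged from 53 for ZNF132 to 3513 for ZNF544, with a median of 399.

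ZNF544 was the most abundant of them in nuclei, at 0.596 of every 10000 UMIs (0.576 to 0.616), and 24.15% of nuclei thinned to 5000 UMIs held at least 1 of its UMIs (exact binomial interval 22.67% to 25.67%), against 54.44% of nuclei without thinning. The thinned share rests on 3197 nuclei, since 225 were shallower. No cluster could be taken to lack these genes, so a share from free RNA was not measured. ZNF544 was also among the more abundant in hESC, at 37.9 and 40.8 CPM. ZNF814 followed at 0.422 UMIs per 10000, ZNF586 at 0.369, ZNF584 at 0.281 and ZNF587B at 0.274. ZNF581, the highest gene per kb in bulk, was at 0.142. Nuclear UMIs include unspliced RNA, so this order is not one of levels per length.

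Single genes, whose counts are smaller, had wider ratios between clusters. Of 26 genes with at least 400 UMIs, 14 had intervals that did not overlap between their highest and lowest cluster of 50 nuclei or more, with ratios of 1.35 to 2.1 over the 26. Those clusters were picked per gene from the same counts, which favours intervals that lie apart. The share among all genes of the nuclei was not computed, so the count is no result about these genes. ZNF814 was at 0.552 UMIs per 10000 (0.498 to 0.611) in the segmenting mesoderm-like cluster and at 0.315 (0.283 to 0.35) in the axial mesoderm-like cluster. ZNF587B was at 0.326 (0.285 to 0.371) and 0.209 (0.183 to 0.238) in the same pair. ZNF444 went the other way, at 0.247 (0.219 to 0.279) in the axial mesoderm-like cluster and 0.134 (0.108 to 0.164) in the segmenting mesoderm-like cluster. ZNF544 ranged from 0.665 (0.608 to 0.727) in cluster 5 to 0.464 (0.393 to 0.543) in cluster 8, whose nuclei had a median of 7910 UMIs against 14572 to 23770 in the others.

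**Figure D3:**
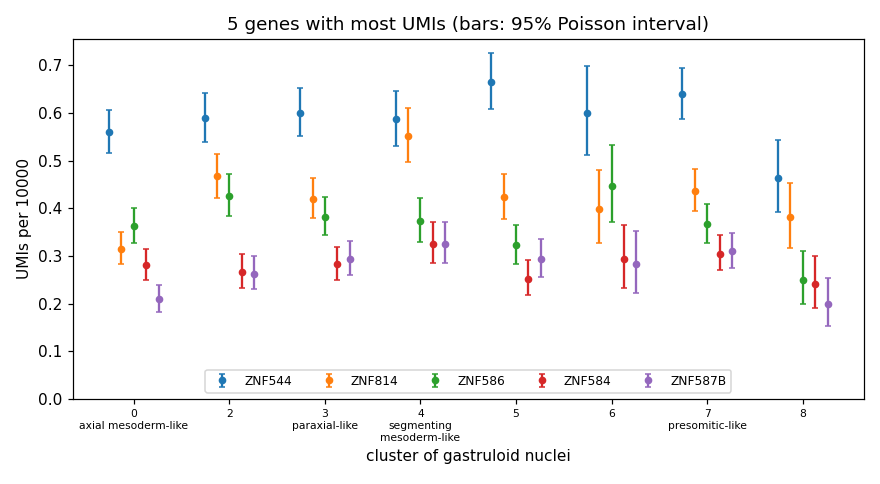
UMIs per 10000 of the 5 genes with most UMIs in the clusters of gastruloid nuclei that hold 50 nuclei or more (points, with 95% Poisson intervals for counting error). ZNF544 is highest in each of the 8 clusters, and ZNF814 lies between 0.315 in the axial mesoderm-like cluster and 0.552 in the segmenting mesoderm-like cluster.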

How the data were processed

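The authors mapped bulk reads to hg19 (HISAT2) and assigned those with a unique position to features (featureCounts), per the methods of the study. The deposited bulk values are raw counts per gene and per transposable element. The nuclei table holds deposited UMI counts, and the peaks are on hg38 from Cell Ranger. The libraries are stranded, but the strand setting of the counting is not given in the sources used here, so genes that overlap cannot be told apart with certainty. Gene places came from the GENCODE annotation lifted to GRCh37, and promoters from RefSeq (GRCh38.p14). No coordinates were converted. Sequences within the LTR5 integrants are not reported here.

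Genes with at least 3 reads in 1 library were tested with edgeR 4.0.16 (TMM, quasi-likelihood) within the groups of each comparison, over all genes, and called at an adjusted p below 0.05 and a fold change over 2. CPM values use TMM library sizes. The test was tried on simulated data. Alternatives were DESeq2 1.42.0, limma 3.58.1 voom, other filters and scalings, and leaving out libraries. Nuclei with at least 1000 UMIs, 200 genes and at most 25% mitochondrial UMIs were clustered with scanpy 1.11.5 (2000 variable genes, 30 components, Leiden resolution 0.5).

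The rule for the 57 genes uses symbol and position alone, but this set of genes was picked for study, and the other lists were drawn up, with earlier results of these data known. Genes named are the called genes with the largest change (up to 6 per direction, mean of at least 1 CPM), the 4 highest and 4 lowest per kb, the 4 closest to LTR5, the 5 with most UMIs, the one with the widest range, TRIM28, and called genes of the lists. Exact intervals and the limit of 3 counts cover counting error only.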

Additional observations from a re-analysis of the deposited data

How the results depend on the processing

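For single called genes, 297 of 345 alternative values kept the direction and the call, 48 kept the direction and lost the call, and none reversed. The 297 include the settings of adjusted p alone and unadjusted p alone. These reuse the main fit at a looser limit, so a called gene could not lose its call or reverse there. For endoderm against hESC, the count of 12 became 23 by unadjusted p alone and 4 with all 12 libraries in 1 fit, and ranged from 2 to 13 on leaving out a library. For foregut against endoderm, the count of 16 became 28 by unadjusted p alone and ranged from 7 to 22 on leaving out a library. For the sgRNA in foregut, the count of 0 became 4 by unadjusted p alone and 5 with all 12 libraries in 1 fit, and ranged from 0 to 4 on leaving out a library. For the difference of the sgRNA effect between tissues, the count of 0 became 5 with DESeq2, 1 with limma voom, 1 with no low-count filter and 6 by unadjusted p alone, and ranged from 0 to 13 on leaving out a library. For the sgRNA in endoderm the count was 0 under each alternative. Median log2 fold changes of the zinc finger genes moved in 9 alternative values and stayed the same within the spread between replicates in 71. The 71 include the settings of adjusted and unadjusted p alone, where the median could not move. The causes were not tested. For endoderm against hESC, the main fit called 5405 of all genes, and unadjusted p alone passed 9599. Without control endoderm library 1 or 2, 10 and 13 zinc finger genes were called, beside 5544 and 5352 of all genes. Calls over all genes are not given here beside the other counts above. A change in power over all genes cannot be told apart there from a change in the zinc finger genes. With the replicate number as a block, the calls were 12 for endoderm against hESC (10 of them shared with the unblocked fit), 0 for the sgRNA in endoderm, 0 in foregut, 12 for foregut against endoderm (11 shared) and 0 for the difference. Deviations of same-numbered libraries correlated at 0.03 and 0.04 for endoderm against hESC, between -0.03 and 0.02 for the sgRNA in endoderm and at 0.16 and 0.13 for foregut against endoderm. These values do not settle whether same-numbered libraries share a culture or batch. For the sgRNA in foregut both pairs gave -0.18, as they must with 2 libraries per group. A crossed pairing, chosen after seeing the data, called 0 of the zinc finger genes and 74 genes in all, against 19 with the numbers as labelled. The count of genes close to LTR5, 33 within 100 kb, was 19 within 50 kb. The ratio of the highest to the lowest cluster for the summed zinc finger genes in nuclei, 1.1, was 1.59 at Leiden resolution 1. With 2 or 3 libraries per group, and a foregut library with reads for 46 of the genes, small changes of genes near 1 CPM could not be resolved.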
